A study of Caenorhabditis elegans with 2 samples.

Results

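Binding of SCRT-1 was examined at 37 cell cycle genes of Caenorhabditis elegans, out of 19973 protein-coding genes. The genes were taken by symbol from Ensembl release 115 gene models of the WBcel235 assembly by a rule that uses no measured value, and all 37 symbols matched. They fall into 4 classes: 16 cyclins, cyclin-dependent kinases (CDKs) and CDK regulators, 8 inhibitors, retinoblastoma (Rb) pathway and degradation genes, 8 replication licensing genes, and 5 mitotic genes. Chromatin immunoprecipitation and sequencing (ChIP-seq) with an antibody to GFP was carried out on 2 biological replicates of 1 group. The animals were strain OP802, in which the integrated transgene wgIs802 carries scrt-1 fused to TY1, EGFP and 3xFLAG tags together with unc-119(+), in an unc-119 (tm4063) background. Embryos were 2 h old, came from egg bleaching and were used whole, so that signal is an average over all embryonic cells and binding in a few cells cannot be told apart from weak binding in many. No untagged, treated or mutant group was analysed here.

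SCRT-1 belongs to the Scratch branch of the Snail superfamily, zinc finger transcription factors whose relatives in flies and vertebrates bind the E-box CAGGTG and often act as repressors. The cell cycle is driven by CDKs, each active only with a cyclin partner. CDC25 phosphatases switch them on, and Wee1 kinases and CDK inhibitors hold them back. Rb proteins with the E2F and DP factors restrain the genes for DNA replication, ubiquitin ligases destroy cyclins and inhibitors, and the MCM helicase is loaded on origins once per cycle. Early embryonic cells of C. elegans alternate DNA replication and mitosis with little gap between them, and depend largely on products stored by the mother.

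The places where the peaks of both replicates fell at cell cycle genes can be read directly from the genome. The following stretches are the 101 bases centred on the summit at the promoters of cya-1 and cki-1 and at 4 places inside introns of cdc-25.2, printed on the plus strand of the RefSeq copy of the ce11 assembly. They are shown because, with lin-35 and cye-1, these are all the cell cycle genes that carried a site. Capitals mark a match to TTTGAA, the cell cycle homology region element described in mammalian cells, or to CAAGTG, a variant of the E-box, on either strand.
cya-1 promoter, chrIII:9109867-9109967: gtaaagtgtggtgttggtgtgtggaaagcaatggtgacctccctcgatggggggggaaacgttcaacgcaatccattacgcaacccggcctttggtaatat
cki-1 promoter, chrII:7810894-7810994: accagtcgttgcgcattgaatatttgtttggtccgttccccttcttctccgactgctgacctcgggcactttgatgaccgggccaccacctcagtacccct
cdc-25.2 intron site 1, chrV:1569886-1569986: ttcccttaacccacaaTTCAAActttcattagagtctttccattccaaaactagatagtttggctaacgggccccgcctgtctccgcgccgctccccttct
cdc-25.2 intron site 2, chrV:1573313-1573413: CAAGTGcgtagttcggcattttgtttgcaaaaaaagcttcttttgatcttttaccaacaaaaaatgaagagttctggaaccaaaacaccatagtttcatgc
cdc-25.2 intron site 3, chrV:1578880-1578980: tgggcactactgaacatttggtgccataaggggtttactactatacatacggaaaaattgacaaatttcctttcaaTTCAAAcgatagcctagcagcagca
cdc-25.2 intron site 4, chrV:1581285-1581385: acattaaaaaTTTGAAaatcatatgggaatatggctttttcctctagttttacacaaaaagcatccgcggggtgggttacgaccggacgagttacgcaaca

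Besides TTTGAA and CAAGTG, the Snail and Scratch word CAGGTG was searched, and it was in none of the 8 stretches at sites of cell cycle genes, those of lin-35 and cye-1 included. Across the genome it lay in 3.47% of the stretches at the 1211 sites and in 3.12% of those at all candidates, so its absence from 8 stretches says little. TTTGAA lay in 3 of the 8, all in introns of cdc-25.2, against 11.15% of the stretches at all sites and 22.3% of those at all candidates. The cya-1 and cki-1 stretches held none of the 9 words searched, which were these 3, the 3 E2F words given further on, the GAGA repeat GAGAGA, the GC box GGGCGG and the tRNA promoter word GTTCGA. Their GC contents were 51.5% and 55.4%, beside means of 51.0% at all sites and 40.1% at all candidates. The stretch at the lin-35 promoter site, which is not printed, was lower than both means, at 35.6%.

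Of the 37 genes, 3 had a site in the promoter: cya-1, cki-1 and lin-35 (8.11%, against 2.99% of all protein-coding genes). A site is a peak of the conservative list, the reproducible peaks of the 2 replicates as deposited by the authors, whose irreproducible discovery rate (IDR, an estimate of how many of the peaks down to a given rank fail to recur between replicates) was at most 0.01. A promoter window ran from 1000 bp upstream to 200 bp downstream of any annotated start, and the summit had to lie in it. By class the promoter sites fell on 1 of 16 cyclins, CDKs and CDK regulators, 2 of 8 inhibitors and Rb pathway genes, 0 of 8 licensing genes and 0 of 5 mitotic genes. With so few genes per class these counts differ by 1 or 2 genes, and no test of the classes was made.

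At each of the 3 promoters both replicates showed a peak of moderate signal. The signal values that follow are those of the authors' peak caller. They have no stated scale and serve only to describe and rank peaks within the list, and the number of reads behind them is unknown. At cki-1, which encodes a CDK inhibitor of the p27 family that holds cells out of the cycle, the site lay 296 bp upstream of the start (chrII:7810786-7811101). Its signal was 37.2 in replicate 1 and 45.8 in replicate 2, 87.4 in the ranked list of both, with an IDR of 0.00659 and rank 832 of 101059 candidates. The replicate summits lay 75 bp apart, and neither replicate's own list held the site. A replicate's own list is here its deposited thresholded list, of 564 peaks in replicate 1 and 522 in replicate 2. Absence from it does not mean that the replicate had no peak there.

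At cya-1, which encodes an A-type cyclin, the site lay 645 bp upstream (chrIII:9109759-9110074). Its signal was 49.3 in replicate 1 and 30.6 in replicate 2, 85.6 in all, with an IDR of 0.00685 and replicate summits 4 bp apart. It was in neither replicate's own list and also missing from the optimal list, the second deposited series-wide list of 1244 peaks. The optimal list gave the same count of 3 genes, with cdc-25.2 in the place of cya-1. No other protein-coding gene started within 1000 bp of the cya-1 or the cki-1 summit.

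The strongest promoter site of the set belonged to lin-35, the Rb-family pocket protein of C. elegans and a repressor of cell cycle genes. Its signal was 57.8 in replicate 1 and 37.7 in replicate 2, 97.2 in all, with an IDR of 0.00198 and rank 672. The peak (I:5807333-5807648) lay 218 bp upstream of lin-35 and was the only one of the 3 found in a replicate's own list, that of replicate 1. The divergent neighbour vps-51 started nearer, 200 bp from the summit, and the peak cannot be assigned to one of the 2 genes. For scale, the median signal over all 1211 sites was 94.6, with medians of 54.2 in replicate 1 and 43.0 in replicate 2, so cya-1 and cki-1 lay below and lin-35 just above the middle of the list.

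Most cell cycle promoters held weaker peaks. A ranked candidate, whatever its IDR, lay in the promoter window of 31 of the 37 genes (83.8%, against 69.4% of all protein-coding genes), with 84 candidates in all and 1 to 7 per gene. Among these 31, the signal of the best candidate ranged from 6.20 at cya-2 to 97.2 at lin-35, with a median of 42.6. The median was 33.9 over all genes with a candidate, where the middle 50% ran from 23.8 to 46.3, and 21 of the 31 cell cycle genes lay above it. The replicates differed in this at the same best candidates. In replicate 1 the median was 29.2 for the cell cycle genes and 19.8 for all genes, but in replicate 2 it was 11.4 and 14.9, the opposite order. With the highest candidate of each replicate taken instead, the order was the same in both. The medians were then 29.2 and 20.8 in replicate 1, and 16.8 and 16.02, close together, in replicate 2. The remaining 6 genes had no candidate: the B-type cyclins cyb-2.1 and cyb-2.2, cyclin E cye-1, the phosphatase cdc-25.4, the DP factor dpl-1 and the Aurora B kinase air-2. The medians leave these genes out.

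**Figure D1:**
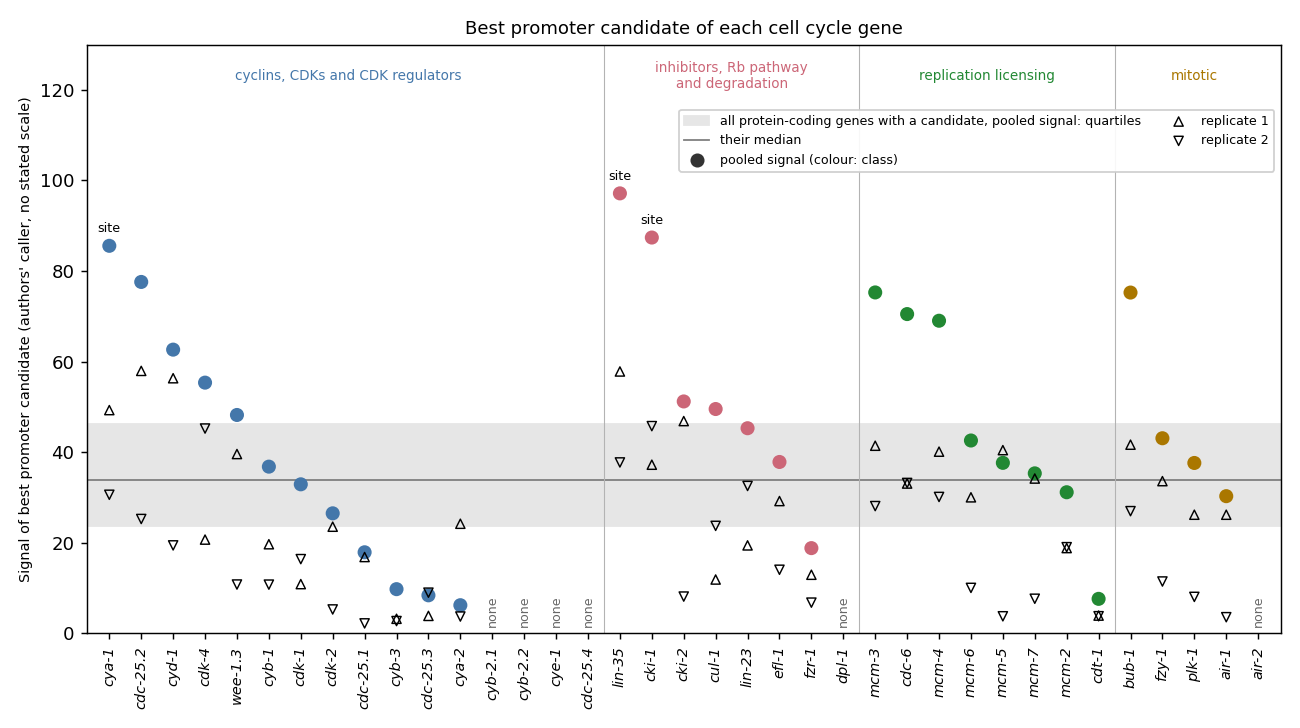
Signal of the best promoter candidate (authors' caller, no stated scale) for each of the 37 genes, ordered within 4 classes. Filled points are the value from both replicates together, open triangles the matched peak in replicate 1 (up) and replicate 2 (down), and the grey band the middle 50% of all protein-coding genes with a candidate. The 3 genes marked as sites stand highest, and the inhibitor and Rb class has 6 of its 7 filled points above the line at 33.9.

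The median best signal was 34.9 in the 12 cyclins, CDKs and CDK regulators with a candidate (6.20 to 85.6), close to that of all genes. It was 49.5 in 7 inhibitors and Rb pathway genes (18.8 to 97.2), 40.1 in 8 licensing genes (7.61 to 75.3) and 40.3 in 4 mitotic genes (30.3 to 75.2). The ranges overlapped widely, and every class but the cyclins had more of its candidates above than below the median of all genes, at 6 of 7, 6 of 8 and 3 of 4, against 6 of 12. In replicate 2 alone the medians were 10.8 in the cyclin class, 14.5 in the licensing genes and 9.74 in the mitotic genes, all below the 14.9 of all genes, and 23.7 in the inhibitor class. In replicate 1 they were 22.1, 33.6, 29.9 and 29.2 in the same order, all above 19.8. At these candidates, picked by the signal of both replicates, the inhibitor class alone thus stood above all genes in both replicates.

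Relaxing the IDR to 0.05 raised the count to 8 of 37 genes (21.6%, against 6.12% of all protein-coding genes). The 5 additions were cdc-25.2, mcm-3, mcm-4, cdc-6 and bub-1, with IDRs from 0.0137 to 0.0236 and signals from 69.0 to 77.6. These were the genes just outside the threshold, and cya-1, cki-1 and lin-35 the only ones inside. The added genes put replication licensing, which had no site, at 3 of 8 (37.5%). The next gene by IDR was cyd-1, at 0.0948.

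Among the licensing genes, mcm-3 and mcm-4 encode subunits of the replicative helicase and cdc-6 encodes a loader of that helicase. The mcm-3 candidate reached 41.4 in replicate 1 and 28.1 in replicate 2, 75.3 in all (IDR 0.0166). It lay 620 bp upstream of mcm-3 but inside its neighbour C25D7.15, 411 bp past the start of that gene. The cdc-6 candidate had 33.1 and 33.2, 70.5 in all (IDR 0.0236), 757 bp upstream of cdc-6 and 378 bp past the start of acin-1, which is again the nearer start. At mcm-4 the candidate lay 128 bp upstream with no other start nearer, at 40.1 and 30.1, 69.0 in all (IDR 0.0137). A second mcm-4 candidate, of signal 2.497, was matched to the same replicate peaks and so carries the same IDR with little signal of its own. The other 5 licensing genes had best signals of 42.6 at mcm-6, 37.6 at mcm-5, 35.3 at mcm-7, 31.1 at mcm-2 and 7.61 at cdt-1, which encodes the licensing factor Cdt1.

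In the mitotic class bub-1, a kinase of the spindle checkpoint, stood highest, with 41.7 in replicate 1 and 26.98 in replicate 2, 75.2 in all (IDR 0.0194). Its candidate lay 194 bp upstream of bub-1 and 465 bp upstream of lin-61. The APC/C activator fzy-1 followed with 33.6 and 11.4, 43.1 in all. The polo kinase plk-1 reached 37.6 and the Aurora A kinase air-1 30.3, neither above the upper quartile of all genes.

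Among the cyclins and CDKs below the threshold, cyd-1, the D-type cyclin of G1, had 56.3 in replicate 1 and 19.4 in replicate 2, 62.6 in all. Its partner kinase cdk-4 had the reverse order, 20.7 and 45.2, 55.4 in all (IDR 0.245). The inhibitory kinase wee-1.3 reached 48.2, cyclin B cyb-1 36.8, the mitotic kinase cdk-1 32.9 and its S-phase relative cdk-2 26.5. Low values were found at cdc-25.1 (17.9), a phosphatase of the germ line and early embryo, at cyb-3 (9.75), a B-type cyclin of embryonic mitosis, and at cdc-25.3 (8.39). In the inhibitor class cki-2, the other CDK inhibitor, reached 51.2, and the ubiquitin ligase genes cul-1 and lin-23, which encode a cullin and an F-box protein of one complex, 49.5 and 45.3. The E2F gene efl-1 had 37.8, and fzr-1, the other APC/C activator, 18.8.

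**Figure D2:**
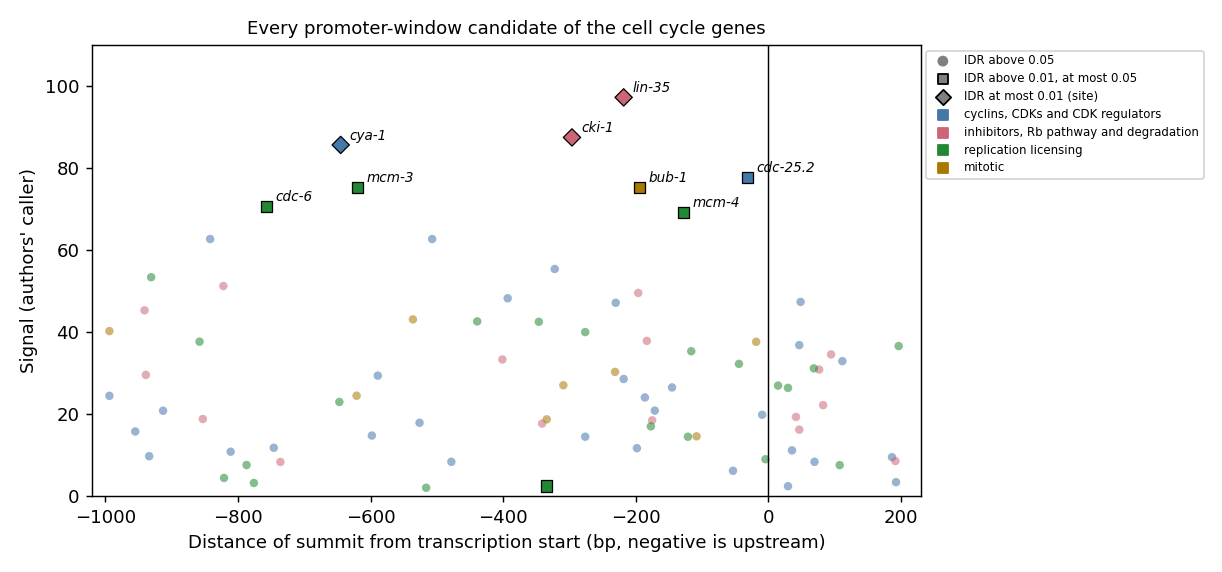
Signal (authors' caller) of all 84 promoter-window candidates of the cell cycle genes against the distance of the summit from the start in base pairs, negative upstream. Diamonds are the 3 sites and squares candidates with an IDR above 0.01 and at most 0.05, 1 of which is the mcm-4 candidate of signal 2.497 that shares its replicate peaks. The window reaches 1000 bp upstream and only 200 bp downstream. The labelled candidates, at an IDR of at most 0.05, lie from 757 to 31 bp upstream, with none downstream. The one at 31 bp is that of cdc-25.2, at an internal start of the gene.

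Of the 84 candidates, 65 lay upstream and 19 downstream of the start. The window reaches 1000 bp upstream and only 200 bp downstream, so the split shows no preference for upstream DNA. Neither the split nor the median position was computed for all genes. The best candidate of a gene lay within 250 bp of the start in 14 of 31 genes (45.2%, against 41.6% of all genes with a candidate), at a median of 322 bp upstream. Another protein-coding gene started nearer to the best candidate in 8 of the 31 (25.8%, against 17.8% of all): lin-35, mcm-3, mcm-5, mcm-6, cdc-6, cdt-1, cyb-3 and air-1. Of these 8, 5 were licensing genes. The distance from a start to the nearest site anywhere had a median of 19806 bp over the 37 genes and 35447 bp over all genes, and 6 of the 37 had one within 5 kb (16.2%, against 11.19%).

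The 2 replicates ranked the promoters of the cell cycle genes only loosely alike. Across the 31 best candidates Spearman's rho was 0.42 and Pearson's r on the log2 scale 0.45, beside 0.36 and 0.39 over all 13864 genes with a candidate. These are descriptions across genes of the same 2 libraries, and genes are not independent replicates. Replicate 1 had the higher signal in 23 of the 31 (74.2%, against 67.6% of all genes with a candidate). It exceeded replicate 2 by more than 3 times in 9 of 31 (29.0%, against 11.22% of all genes with a candidate). The 9 were cdk-2, cya-2, cdc-25.1, wee-1.3, cki-2, mcm-5, mcm-7, plk-1 and air-1. The most uneven was mcm-5, at 40.4 in replicate 1 and 3.76 in replicate 2. At cki-2 the values were 46.9 and 8.11 and at air-1 26.2 and 3.56. Neither replicate's own list alone would give the 3 site genes: the list of replicate 1 (1.46% of all protein-coding genes) held lin-35 and the list of replicate 2 (1.43%) held no member.

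**Figure D3:**
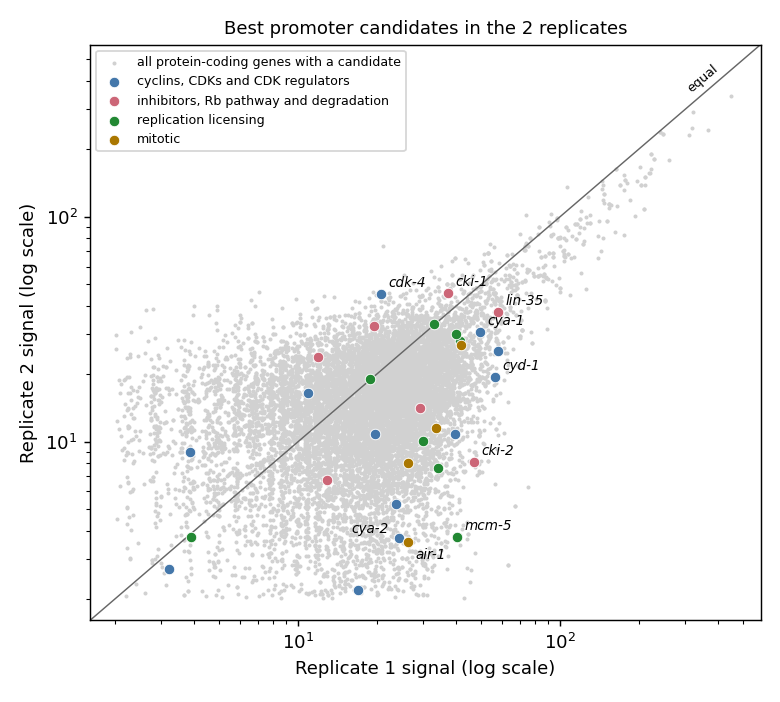
Signal of the matched peak in replicate 1 and replicate 2 (both log scales) for the best promoter candidate of each cell cycle gene, coloured by class, over all protein-coding genes with a candidate in grey. The line marks equal signal. The site genes cya-1, cki-1 and lin-35 lie near it, and mcm-5, cki-2, air-1 and cya-2 lie far on the replicate 1 side.

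For some genes the windows were not fully unique in the genome, which bears on a low or missing value. Only 29.5% of the 30-base words in the cya-2 window occurred once in the genome. At cya-2 the matched replicate peaks, of 24.2 and 3.71, had summits 500 bp apart. The share was 84.1% for cyb-2.1 and 82.6% for cyb-2.2, closely related B-type cyclins without a candidate, 83.0% for cdt-1, 88.7% for cdk-2 and 93.9% for efl-1. In the other 31 genes it was over 96%. Whether uniqueness set these values was not tested.

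Sites inside genes and outside promoter windows were kept apart. They occurred in 2 of the 37 genes, cye-1 and cdc-25.2 (5.41%, against 1.99% of all protein-coding genes). The cye-1 site was the strongest at any cell cycle gene, at 307 in replicate 1 and 227 in replicate 2, 533 in all (IDR 1.39e-05, rank 25). It was in both replicates' own lists, with replicate summits 13 bp apart. It lay in an intron of cye-1 (I:6781693-6781942), 1025 bp after the first start and 21 bp into a tRNA-Cys gene on the same strand. The promoter window of cye-1 itself held no candidate, and its other 3 candidates inside the gene had signals from 18.5 to 37.5. Over the whole peak, not only the 101 bases at its summit, 74.7% of the 30-base words occurred once in the genome. The share at the tRNA gene alone is not given, and what reads from other tRNA copies add to the peak was not tested.

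The phosphatase gene cdc-25.2, which is required for oocyte maturation, held 4 intron sites along its 18457 bp on chromosome V. From the first start they lay at 2860 bp (51.4 in replicate 1 and 41.3 in replicate 2, 102 in all), 6287 bp (48.9 and 33.3, 84.1 in all), 11854 bp (39.2 and 54.3, 101 in all) and 14259 bp (47.0 and 45.3, 87.1 in all). The IDRs ran from 0.00194 to 0.00460. All 4 were in the optimal list and none in either replicate's own list, and none lay at a small RNA gene. The stretches at these sites are printed above, and their GC contents were 49.5%, 35.6%, 39.6% and 40.6%. A further peak lay 31 bp upstream of the third of its 4 starts, inside the gene and 15672 bp from the first start. It had 57.9 in replicate 1 and 25.25 in replicate 2, 77.6 in all (IDR 0.0170). It is the promoter candidate counted above.

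Of all 19973 protein-coding genes, 50 held at least 2 gene-body sites and 3 held 4, the highest number found: cdc-25.2, hmr-1 and ppfr-1. hmr-1 and ppfr-1 were named after their values were seen, and are longer, at 58913 and 25884 bp. Of the 998 genes of at least 10 kb, 104 (10.4%) held any gene-body site and 3 (0.30%) held at least 4. Whether length sets such counts was not tested. Over its whole length cdc-25.2 held 27 candidates, of which 7 had an IDR of at most 0.05.

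**Figure D4:**
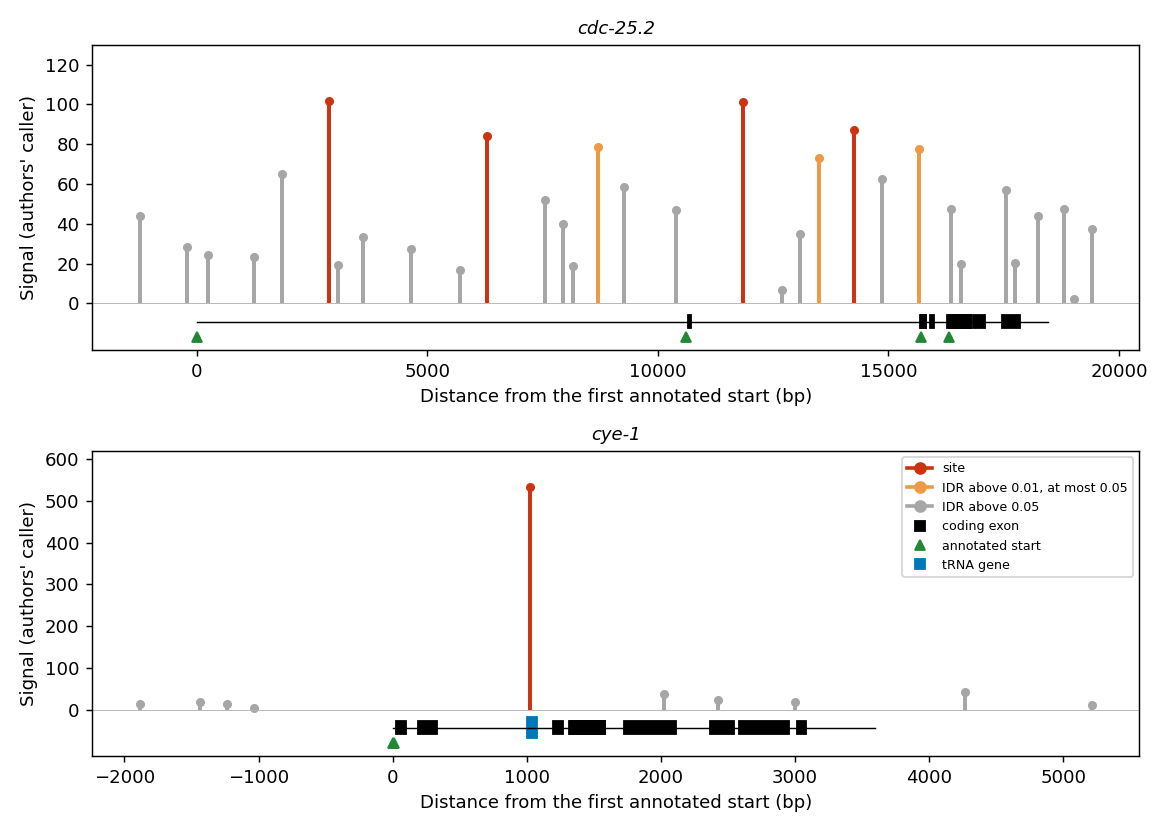
Signal (authors' caller) of every ranked candidate along cdc-25.2 and cye-1 against the distance from the first annotated start in base pairs, with coding exons, starts and the tRNA gene drawn below. The 4 cdc-25.2 sites, between 84.1 and 102, stand highest, but other candidates follow closely, the next at 78.7 (IDR 0.0106). In contrast, cye-1 has 1 site of 533 at the tRNA gene. The signal axes differ between the panels.

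Words of the kind bound by E2F factors were most frequent in the licensing genes. The words TTTCCCGC, TTTGGCGC and TTTCGCGC were searched on both strands from 250 bp before to 50 bp after the outermost start. At least 1 was found in 10 of the 37 promoters (27.03%, against 3.54% of all protein-coding promoters). The 10 comprised 6 of 8 licensing genes (mcm-3, mcm-4, mcm-5, mcm-6, mcm-7 and cdt-1), 3 of 16 cyclins and CDK genes (cdk-2, cyd-1 and cdc-25.2), 1 of 8 inhibitor and Rb pathway genes (efl-1) and 0 of 5 mitotic genes. Of the 8 stretches at sites of cell cycle genes, 0 held such a word, as against 1.82% of the stretches at all sites. The stretch at the mcm-4 candidate held TTTCGCGC. A match describes letters only and is not shown to be bound by an E2F factor.

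**Figure D5:**
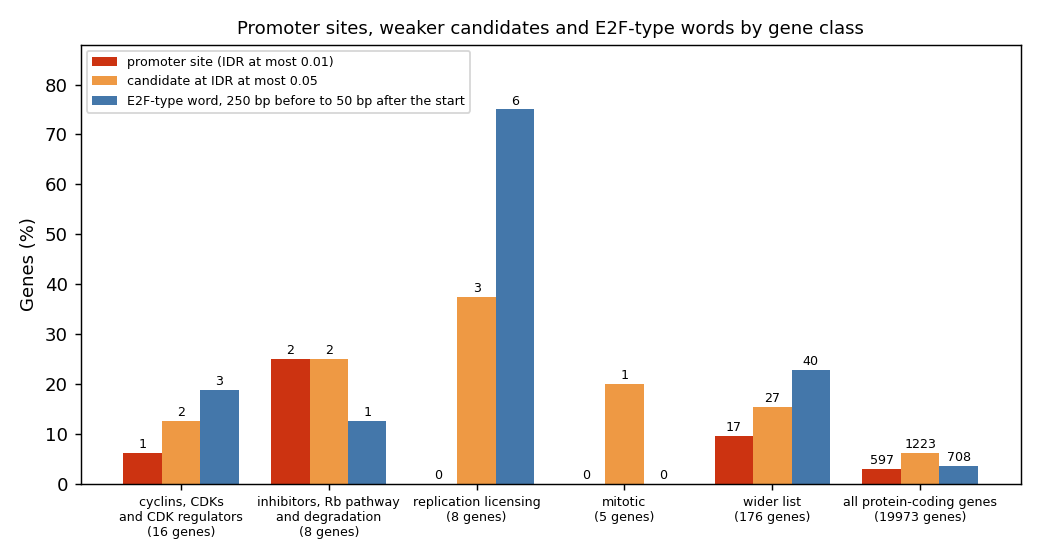
Share of genes (%) in each class, in the wider list and among all protein-coding genes with a promoter site, with a promoter candidate at an IDR of at most 0.05, and with an E2F word near the start, with the number of genes above each bar. E2F words reach 75% in the licensing genes, which have no site.

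E2F words of 4 licensing genes and of cyd-1 are shown in their 30-base surroundings, 5′ to 3′ on the strand of the gene, to compare them with one another. Those of mcm-4 and cdt-1 and another word of mcm-6 are not printed. They come from the RefSeq copy of the ce11 assembly, and capitals mark the word, which reads GCGGGAAA, GCGCGAAA or GCGCCAAA where it lies on the opposite strand.
mcm-3, chrV:15059725-15059754: acggagcgagcGCGCGAAAccttgctgttt
mcm-5, chrIII:4291442-4291471: gtgaggcgcggGCGCCAAAaattttcaaat
mcm-6, chrIII:9794236-9794265: tttctcgtcgtTTTCCCGCattctcattgt
mcm-7, chrV:4347007-4347036: aggaggcaaacGCGCGAAAttcgaacggac
cyd-1, chrII:12980512-12980541: caattcactttGCGGGAAAtaatgcgtgct

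In these promoters the first base of the printed word lay 144 bp upstream of the outermost start in mcm-3, 194 bp in mcm-5, 120 bp in mcm-6, 148 bp in mcm-7 and 68 bp in cyd-1. The summit of the best candidate lay within 50 bp of a word in 3 of the 10 genes that have one, mcm-4, mcm-7 and efl-1. At mcm-4 the summit lay on the word, with the values given above. At mcm-7 it lay 25 bp from the word, at 34.2 in replicate 1 and 7.63 in replicate 2 (IDR 0.570), and at efl-1 39 bp from it, at 29.2 and 14.03 (IDR 0.320). In cdk-2 the distance was 59 bp. In the other 6 genes it was 192 bp or more. The best candidates of cyd-1 and cdc-25.2 lay at other starts, 7186 and 15839 bp from the word. The E-box CAGGTG lay in 5 of the 37 promoters (13.5%, against 8.48% of all), at cyb-2.1, cyb-2.2, cyd-1, lin-23 and mcm-3. Its variant CAAGTG had the opposite order, in 3 of the 37 (8.11%, against 12.4% of all), at cyd-1, cye-1 and mcm-6.

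A wider list of cell cycle genes gave a similar share. It held 182 further genes of the same pathways, 176 of which matched a gene, and 17 of these had a promoter site (9.66%, against 2.99% of all protein-coding genes). At an IDR of 0.05 there were 27 (15.3%, against 6.12%). Cohesin and condensin genes held 4 of the 17 among 16 genes, kinetochore, centrosome and spindle genes 5 among 44, and ubiquitin ligase and APC/C genes 3 among 21. Of the cohesin and condensin genes with a site, smc-3, smc-4 and hcp-6 had another gene's start nearer, and scc-2 counted through an internal start. Nearer starts of other genes were also found in other classes, as given below. Replication origin and fork genes held 2 among 32. Checkpoint genes held 1 among 16, DREAM and synMuv B genes 1 among 13, the other cyclins and CDKs 1 among 20, and cytokinesis genes 0 among 14. The best candidate had a median signal of 40.7 in the 159 wider genes with one, near the 42.6 above.

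The 10 highest by signal were led by spd-5, which encodes the scaffold of the pericentriolar material, at 169 in replicate 1 and 138 in replicate 2, 312 in all. The cohesin loader gene scc-2 followed at 100.2 and 73.8 (172 in all) and cdk-9, a kinase of transcription elongation, at 104 and 66.6 (170 in all). These 3 and the spindle kinesin gene klp-18 (150) were in both replicates' own lists. The others were knl-3 of the kinetochore (129), the gamma-tubulin gene tbg-1 (124.8), the APC/C genes emb-1 (108.1) and mat-1 (107), smc-3 of cohesin (107) and smc-4 of condensin (106). In 7 of the 10, all but spd-5, scc-2 and cdk-9, another gene started nearer to the summit than any start of the named gene. These were cogc-2 for klp-18, T10B5.3 for knl-3, rpac-19 for tbg-1, K10D2.5 for emb-1, prp-31 for mat-1, mib-1 for smc-3 and F35G12.7 for smc-4. At spd-5 and scc-2 the summit lay inside the gene, and the site counted through an internal start. At spd-5, npp-6 started nearer to the summit than that internal start. Over the whole wider list 7 of the 17 genes kept a site when no nearer start was allowed. The share fell from 9.66% to 3.98%, and that of all protein-coding genes from 2.99% to 2.21%. Of the 37 cell cycle genes 2 were left under that rule (5.41%). With only the outermost start of each gene used, 14 of the 176 wider genes had a site, without spd-5, scc-2 and brc-1. That was 7.95%, against 2.65% of all protein-coding genes.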

How the data were processed

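ChIP-seq peak lists of 2 biological replicates of 1 group were used, in ce11 coordinates per the labels, the same assembly as the WBcel235 reference. The signal of each peak is the authors' caller's value, deposited without a stated scale. The deposited ranked lists give the global IDR as a −log10 value, converted here to an IDR. Of the aligner, caller, versions and depth nothing is given in the sources used here, and the control library was not analysed here. No count, interval or test rests on reads. In the ranked list of both replicates the replicate columns were named by exact record matches with the ranked list of each replicate. This is not the thresholded list called its own list above. Of 101059 rows, 66.1% matched replicate 1 in the first column and 52.9% replicate 2 in the second. There were 0 matches to the other replicate in either column. The conservative list holds 1211 peaks, and 112 ranked peaks at an IDR of at most 0.01 are absent from it. Chromatin had been sheared to 200 to 800 bp per the labels.

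Summits were placed in promoter windows with Python 3.11.15, numpy 2.4.6, pandas 2.3.3 and scipy 1.17.1. The placement was checked on simulated summits. Words were searched within 50 bp of summits. Small RNA genes are tRNA, snoRNA, snRNA and rRNA genes starting within 100 bp of a summit. Values per replicate are given for every gene with a site and the 2 genes of each class with the highest signal, and of the wider list the 10 genes with a site and the highest signal are named, with any gene starting nearer. Further replicate values were chosen after they were seen. The genes and lists were chosen with earlier results of these data known, so no test over them was made and each count stands beside that of all 19973 protein-coding genes.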

Additional observations from a re-analysis of the deposited data

How the results depend on the processing

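Counts of genes without a replicate used the other replicate's own list in place of the 1211 sites. That list held 522 peaks without replicate 1 and 564 without replicate 2. The count of 3 cell cycle genes with a promoter site became 8 at an IDR of 0.05 and 0 at 0.001, and ranged from 0 without replicate 1 to 1 (lin-35) without replicate 2. All protein-coding genes moved with it, to 6.12%, 1.006%, 1.43% and 1.46%. It stayed at 2 or 3 with the optimal list, other windows, without small RNA gene sites, with no nearer start allowed, and with the peaks absent from the conservative list added, a setting chosen after seeing the data. By class, cyclins, CDKs and CDK regulators went from 1 to 2 at an IDR of 0.05 and to 0 at 0.001, without either replicate, and with a window of 500 bp upstream, which loses cya-1. Inhibitors and Rb pathway genes went from 2 to 0 at 0.001, 0 to 1 without one replicate, and 1 (cki-1) with no nearer start. Licensing genes went from 0 to 3 and mitotic genes from 0 to 1 at 0.05. The wider list went from 17 to 27 at 0.05, 5 at 0.001, 6 without replicate 1, 8 without replicate 2 and 7 with no nearer start (3.98%, against 2.21% of all genes, from 9.66% against 2.99%). Of the 2 genes with a gene-body site, 1 (cye-1) was left at 0.001 and without either replicate. The median best signal of 42.6 became 16.8 without replicate 1 and 29.2 without replicate 2, each a smaller scale by construction, beside 16.02 and 20.8 over all genes. The depth of the libraries is unknown, so a promoter without a site is not shown to be unbound. No paired analysis was possible because the series has 1 group.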

Other observations

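Of the 176 genes of the wider list, 5 held a gene-body site (2.84%, against 1.99% of all protein-coding genes). They held 6 such sites, 5 of which lay at a small RNA gene, as did 31.5% of the 448 gene-body sites of all protein-coding genes. The strongest was in an intron of mix-1, a condensin subunit gene, at 270.0 in replicate 1 and 209 in replicate 2, 476 in all. The checkpoint gene hpr-9 had an intron site at 169 and 155, 332 in all. In brd-1, which encodes the partner of the BRCA1 homologue, 2 intron sites had signals of 220.1 and 99.96. The spindle checkpoint gene mdf-2 had a site of 148 in an exon outside its coding sequence, and pole-1, a DNA polymerase gene, one of 77.5 in a coding exon, the only one of the 6 away from small RNA genes. These genes were chosen after their values were seen.

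Some neighbouring candidates shared the same replicate peaks. At czw-1, a kinetochore gene, sites of signal 102 and 7.83 carried the same replicate values of 59.7 and 34.3, as was seen at mcm-4, so a low IDR there does not mark a second peak of its own.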
